A study of Homo sapiens with 6 samples.

Results

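This is an account of 46 genes for heat shock proteins, cytosolic and mitochondrial chaperones and their regulators, among the 63677 gene identifiers counted in T24 cells, a human bladder cancer cell line of grade 3. The genes were chosen by name and not by a rule on their values, though with earlier results of these data known. All 46 symbols were found in the count table, and 43 of them passed the filter on low counts that left 15099 genes for testing. T24 cells had been transfected for 4.5 h with a pair of siRNAs against RBM3 (siRBM3) or with a non-targeting control siRNA, each at 25 nM and by lipofection in serum-free medium, and were harvested the next day. Each group was represented by 3 libraries, control replicates 1, 3 and 5 and siRBM3 replicates 3, 4 and 5. All 6 libraries therefore came from transfected cells of 1 line kept at 37 °C, and none from untransfected or heated cells. RBM3 itself is a cold shock protein that binds RNA, and the comparison asks where the heat side of the stress response stood after its depletion.

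Chaperones hold unfolded or newly made polypeptides and help them to reach their native shape. HSP70 proteins bind and release short stretches of a client in an ATP-driven cycle, which J-domain proteins start and which BAG proteins and HSP110 proteins, as nucleotide exchange factors, reset. HSP90 acts later on kinases and steroid receptors and is guided by co-chaperones. The chaperonin TRiC, also called CCT, is a double-ring chamber in the cytosol that folds actin and tubulin, and each of its rings is built from 8 different subunits. HSF1 is the transcription factor that switches on the inducible chaperones after heat or proteotoxic stress. It binds heat shock elements, which are alternating copies of the letters GAA and TTC spaced by 2 bases.

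The RefSeq promoters of the chaperone genes are shown first because this element is the one that HSF1 binds. A promoter of 250 bases before to 50 bases after the start was present in the GRCh38.p14 table for 40 of the 46 genes. The 3-unit elements GAANNTTCNNGAA and TTCNNGAANNTTC, which are each other's reverse complements so that both strands were covered, were present in 7 of these 40 promoters (17.5%), against 166 of 27305 promoters of all genes (0.608%). The 2-unit forms GAANNTTC and TTCNNGAA, which every 3-unit element contains, were present in 21 of the 40 (52.5%) and in 16.2% of all promoters. The stretches below carry the whole elements in capitals, on the strand of the gene and with GRCh38.p14 coordinates.
HSPA8, first element, chr11:123062346-123062374, minus strand: gcgagcttGAAAGTTCCAGAAcgctgcgg
HSPA8, second element, chr11:123062171-123062199, minus strand: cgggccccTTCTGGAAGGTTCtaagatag
HSP90AA1, chr14:102087112-102087140, minus strand: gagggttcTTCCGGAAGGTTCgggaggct
HSP90AB1, first element, chr6:44247770-44247798, plus strand: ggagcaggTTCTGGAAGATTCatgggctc
HSP90AB1, second element, chr6:44247823-44247851, plus strand: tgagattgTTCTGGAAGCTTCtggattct
HSPD1, chr2:197500063-197500090, minus strand: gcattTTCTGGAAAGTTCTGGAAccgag
DNAJB6, chr7:157336865-157336893, plus strand: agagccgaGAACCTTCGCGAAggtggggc
CHORDC1, chr11:90223084-90223112, minus strand: ccgGAAAATTCGCGAAGGTTCCTGAAacg
In CHORDC1 the capitals span 23 bases and hold 3 overlapping whole elements, and in HSPD1 they span 18 bases and hold 2. DNAJA1 held the remaining match, downstream of its start. None of the 7 TRiC promoters in the table held a 3-unit element, and 3 of them held a 2-unit form. Of the 9 promoters in the table from genes taken below as heat-inducible, only 3 held a 3-unit element and 7 held a 2-unit form. The lack of a 3-unit match therefore does not set a gene apart from the heat-inducible ones. A match of letters, or its absence, is a description of the window and no measure of binding.

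The silenced gene was checked first. RBM3 stood at 225, 368 and 301 CPM (counts scaled to a common library size by TMM) in control replicates 1, 3 and 5 and at 54.1, 90.1 and 58.35 CPM in siRBM3 replicates 3, 4 and 5. All siRBM3 values lay below all control values, and the log2 fold change was −2.14 ± 0.24 (SE; FDR = 0.0822 by edgeR, adjusted p = 3.87e-14 by DESeq2). Library totals ran from 23603992 to 45098612 counts, of which the 46 genes took 0.710% to 0.999%. The labelled cell line was checked with marker lists. KRT7, KRT8, KRT18, KRT19, VIM and FN1 were abundant. KRT5, KRT20, CDH1, UPK1A, UPK1B, UPK3A and TP63 stayed under 1 CPM in both group means. Of the 8 tested epithelial markers, KRT7 and KRT8 were lower and GATA3 higher at an unadjusted p under 0.05, and the part of this in the results below was not tested. Among blood and endothelial markers, HBB was at 0 in all libraries and the highest, CD14, had group means of 2.47 and 2.36 CPM. The mitochondrial share of counts was 1.63%, 2.86% and 2.10% in the control libraries and 9.40%, 4.15% and 2.32% in siRBM3 replicates 3, 4 and 5, so that replicate 3 was the highest of its group on both sides and siRBM3 replicate 3 stood apart from the others.

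With thresholds of 1.5 for the fold change and 0.01 for the FDR, edgeR called 0 of the 43 tested chaperone genes higher and 0 lower, and 0% of the 15099 tested genes in either direction (990 genes higher and 993 lower had an unadjusted p under 0.05). The smallest FDR over all tested genes in this fit was 0.0822, the value of the silenced RBM3. The lack of edgeR calls is therefore a limit of the fit and no result about the chaperones. By DESeq2, 0 of the 41 chaperone genes with an adjusted p were called, against 84 genes higher (0.643%) and 75 lower (0.574%) among 13068, and limma-voom called 0. The smallest FDR among the chaperones was 0.230, for CCT7. The direction was uneven all the same. The log2 fold change was below 0 in 38 of the 43 genes and above 0 in HSPA1A, HSPA1B, HSPA8, HSPE1 and BAG5. Their median was −0.16, against −0.01 over all tested genes. An unadjusted p under 0.05 was reached by 11 genes in the lower direction (25.6%; 6.58% of all tested genes) and by 0 in the higher direction (6.56% of all tested genes). The siRBM3 values all lay below the control values in 14 genes (32.6%; 9.93% of all tested genes), and no gene had the reverse order (9.98% of all tested genes). These genes are expressed together and were measured in the same 6 libraries, so their counts are a description of the family and not of independent tests.

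**Figure D1:**
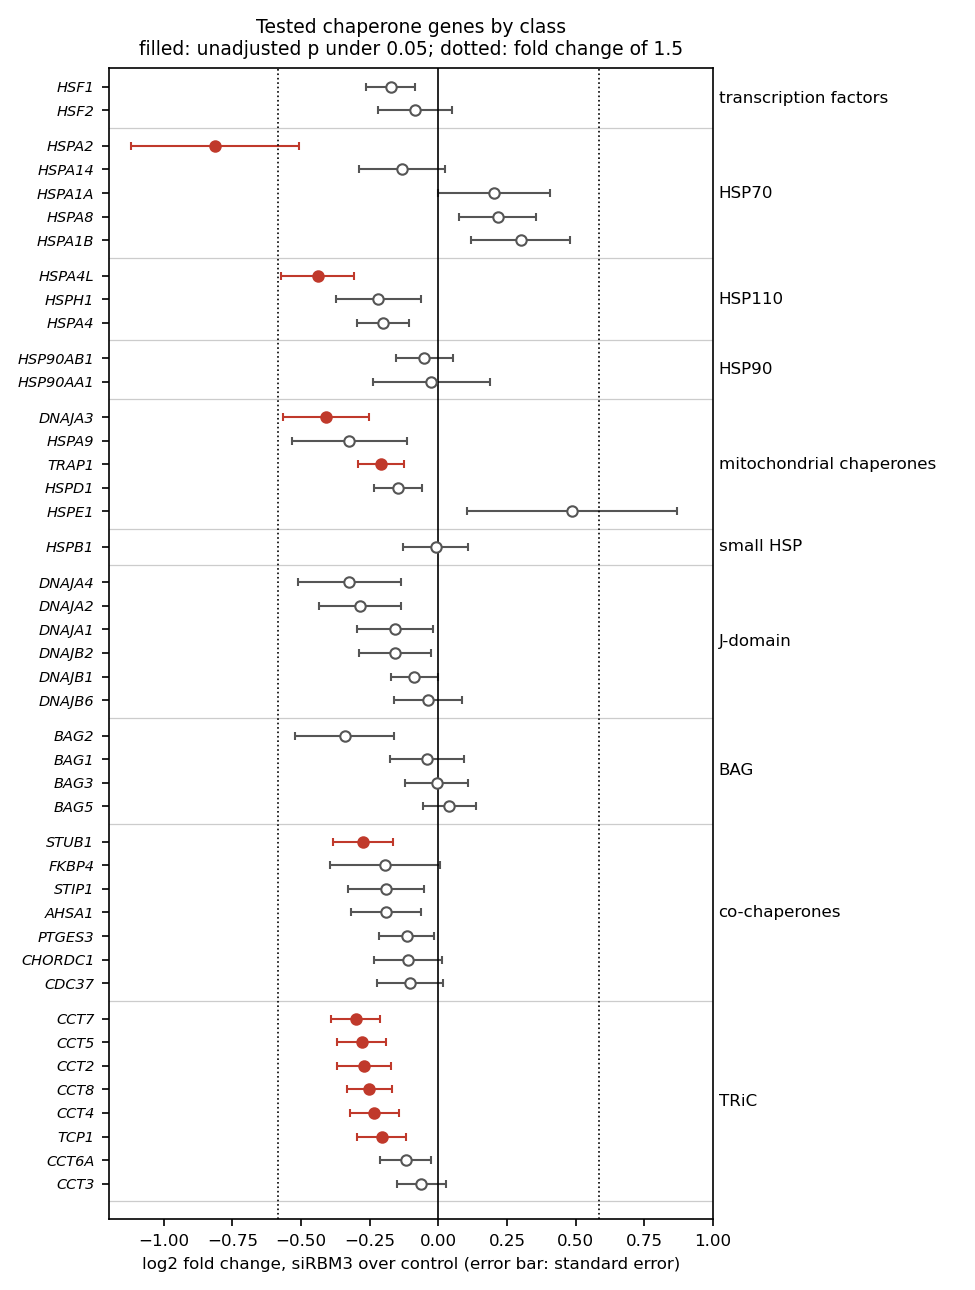
Log2 fold change of each of the 43 tested chaperone genes (siRBM3 over control, horizontal axis) with its standard error, grouped by class. Filled points had an unadjusted p under 0.05 and all 11 lie to the left of 0, whereas the dotted lines mark a fold change of 1.5, which only HSPA2, at about 1 CPM, passed.

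The subunits of TRiC held most of the genes with an unadjusted p under 0.05. All 8 had a log2 fold change below 0, from −0.06 for CCT3 to −0.30 for CCT7, with a median of −0.24. Of the 8, 6 had both an unadjusted p under 0.05 and no overlap between the groups. Over all tested genes, 6.58% were lower at an unadjusted p under 0.05 and 9.93% were lower without overlap. The median SE was 0.09 in TRiC and 0.17 over all tested genes, so that a smaller shift reaches this p in TRiC. No subunit passed the adjustment over all genes. In RNA from whole cultures, fewer cells with an mRNA and less of it per cell cannot be told apart. The 8 subunits together took 2550, 2564 and 2350 CPM in the control libraries and 2099, 2137 and 2189 CPM in the siRBM3 libraries. The siRBM3 mean of 2142 ± 45.3 CPM was 0.861 times the control mean of 2488 ± 120 CPM (SD, n = 3 each). Leaving out any 1 library kept all 8 log2 fold changes below 0, and the class median then lay between −0.27 and −0.20. The number of subunits with an unadjusted p under 0.05 was 2 without siRBM3 replicate 4, 3 without control replicate 3, siRBM3 replicate 3 or siRBM3 replicate 5, 4 without control replicate 1 and 5 without control replicate 5. The share of all tested genes at that p in these smaller fits is not given here.

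CCT7 (ENSG00000135624; GRCh37 chromosome 2, 73460548 to 73480149), the eta subunit, was measured at 458.5, 448 and 407 CPM in the control libraries. Its siRBM3 libraries stood at 342, 365 and 358.5 CPM. Even the highest of these lay below the lowest control, and the log2 fold change was −0.30 ± 0.09 (SE; FDR = 0.230, edgeR). CCT5, the epsilon subunit, was at 396.5, 405 and 367 CPM in the control and 310, 315 and 337 CPM in the siRBM3 libraries. This was a log2 fold change of −0.28 ± 0.09 (FDR = 0.251), again without overlap, although 52.7% of its exon bases lie under an antisense gene. CCT8, the theta subunit, gave 322, 331.5 and 324 CPM against 267, 284 and 270 CPM. The control libraries of CCT8 lay closer together than those of the other subunits, and its log2 fold change was −0.25 ± 0.08 (FDR = 0.259).

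CCT2, the beta subunit, was at 172, 208 and 182 CPM in the control and 159, 149 and 157 CPM in the siRBM3 libraries, with a log2 fold change of −0.27 ± 0.10. CCT4, the delta subunit, was at 313, 318 and 280 CPM against 260, 262 and 253 CPM, with a log2 fold change of −0.23 ± 0.09. TCP1, the alpha subunit, was at 237, 233 and 221 CPM against 189, 195 and 215 CPM, with a log2 fold change of −0.21 ± 0.09. In TCP1 the groups came closest, since siRBM3 replicate 5 lay just under control replicate 5. Their FDRs were 0.302, 0.321 and 0.379 (edgeR). CCT6A and CCT3 overlapped between the groups. Their log2 fold changes were −0.12 ± 0.09 and −0.06 ± 0.09. In no subunit was control replicate 3 the lowest control library.

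**Figure D2:**
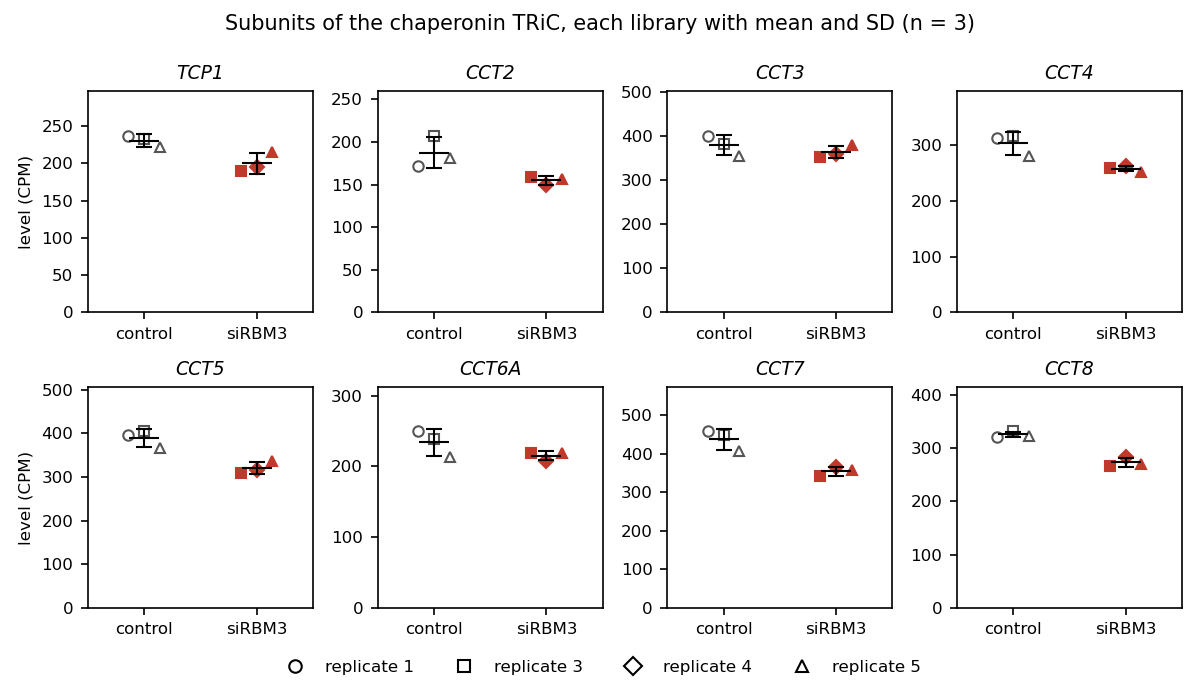
Level of each TRiC subunit in CPM (vertical axes from 0) in the 3 control and 3 siRBM3 libraries, with group means and SD; the symbol gives the replicate number of the labels. In TCP1, CCT2, CCT4, CCT5, CCT7 and CCT8 every siRBM3 point lies below every control point, and in CCT3 and CCT6A the groups overlap.

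A subset of 10 genes across the classes was taken here as heat-inducible. It holds HSPA1A, HSPA1B, HSPA8, HSPH1, HSP90AA1, HSPB1, CRYAB, DNAJB1, BAG3 and CHORDC1, of which all but CRYAB were tested. The list is not complete, and its median depends on the choice. Of the genes with a 3-unit element it leaves out HSP90AB1, DNAJB6, HSPD1 and DNAJA1, at log2 fold changes of −0.05, −0.04, −0.15 and −0.16. The median log2 fold change of the tested genes of the subset was −0.01, beside −0.01 over all tested genes. Of them, 3 lay above and 6 below 0, and none had an unadjusted p under 0.05. The median was −0.02 without HSPA8, which is also expressed without heat. It turned with the libraries used, to 0.09 without control replicate 1, −0.09 without control replicate 3 and 0.06 without siRBM3 replicate 3. The range was −0.22 (HSPH1) to 0.30 (HSPA1B). Only DNAJB1 had groups that did not overlap, at a log2 fold change of −0.09 ± 0.08. This is 11.1% of the tested genes of the subset, close to the 9.93% of all tested genes that were lower without overlap.

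HSPA1A and HSPA1B encode an inducible HSP70 and lie next to each other on GRCh37 chromosome 6 (31783320 to 31785723 and 31795515 to 31798031). HSPA1A was at 14.2, 13.2 and 20.9 CPM in the control and 15.4, 19.8 and 20.3 CPM in the siRBM3 libraries. HSPA1B was at 15.4, 11.9 and 17.8 CPM against 15.8, 20.3 and 19.65 CPM. The groups overlapped in both, and the log2 fold changes were 0.20 ± 0.20 and 0.30 ± 0.18 (FDR = 0.720 and 0.523, edgeR). Of the stretches of 75 bases, the read length, in their exons, 73.8% and 70.2% occur at least once more in the genome, so reads cannot be divided reliably between the pair. Their sum, which depends less on that division, was 29.7, 25.1 and 38.7 CPM in the control and 31.2, 40.1 and 40.0 CPM in the siRBM3 libraries, means of 31.1 ± 6.93 and 37.1 ± 5.11 CPM (exact two-sided permutation test, p = 0.2, with 0.1 the smallest value possible for 3 against 3). Without control replicate 5 the log2 fold change of HSPA1A was 0.43 and its unadjusted p fell under 0.05.

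HSPA8, the constitutive cytosolic HSP70, was measured at 648.5, 502 and 611 CPM in the control and 574, 704 and 768 CPM in the siRBM3 libraries. The siRBM3 replicate 3 value lay inside the control range, and the log2 fold change was 0.22 ± 0.14 (FDR = 0.560, edgeR). Without siRBM3 replicate 3 it was 0.33, with an unadjusted p under 0.05, and it stayed uncalled. HSPA2, the testis-enriched HSP70, was barely expressed at 1.58, 0.880 and 1.17 CPM in the control and 0.707, 0.632 and 0.726 CPM in the siRBM3 libraries. Its log2 fold change of −0.81 ± 0.31 was the lowest of the family (FDR = 0.313) and rests on few reads. HSPA14, which works with ribosome-bound nascent chains, was at 35.5, 47.8 and 36.0 CPM against 40.75, 36.6 and 31.35 CPM, a log2 fold change of −0.13 ± 0.15 whose sign turned without control replicate 3 (0.02).

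HSP90AA1, the inducible cytosolic HSP90, varied within groups more than between them. It was at 872, 502 and 631 CPM in the control and 521, 688 and 761 CPM in the siRBM3 libraries. The lowest library of each group was its replicate 3, and the means of 668 ± 188 and 657 ± 123 CPM (SD, n = 3 each) differed by far less than this spread. The log2 fold change was −0.03 ± 0.21 (FDR = 0.970, edgeR), and it was 0.21 without control replicate 1 and 0.12 without siRBM3 replicate 3. HSP90AB1, the constitutive paralog and the most abundant chaperone mRNA per kilobase, was steadier at 1443, 1198 and 1239 CPM in the control and 1198, 1282 and 1265 CPM in the siRBM3 libraries, with a log2 fold change of −0.05 ± 0.11. The ratio of HSP90AA1 to HSP90AB1, each per kilobase of exon, was 0.478, 0.332 and 0.403 in the control and 0.344, 0.425 and 0.476 in the siRBM3 libraries, so that it too was lowest in replicate 3 on both sides.

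**Figure D3:**
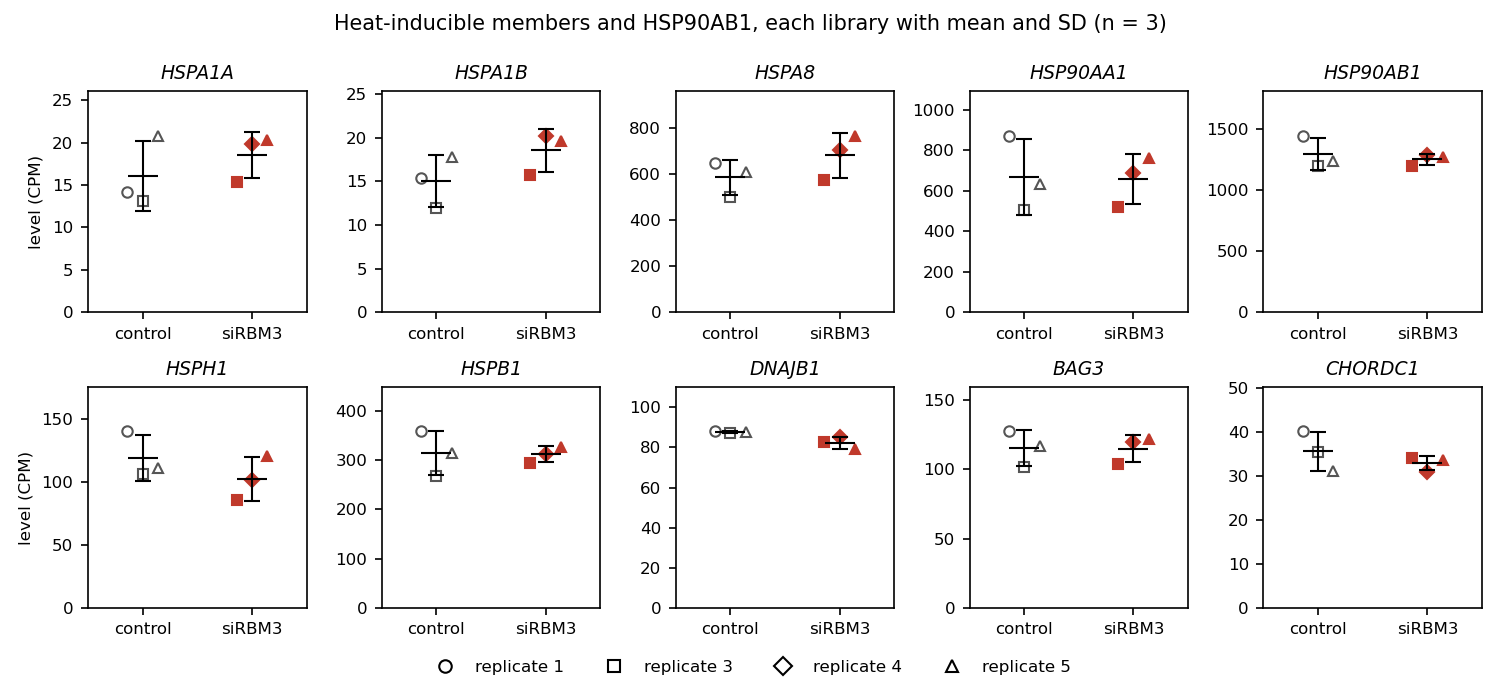
Level in CPM (vertical axes from 0) of the 9 tested heat-inducible genes and of HSP90AB1 in each library, with group means and SD; the symbol gives the replicate number of the labels. The squares, replicate 3 of each group, are the lowest of their group in every panel but DNAJB1 and CHORDC1, and the groups overlap in every panel but DNAJB1.

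That order held for most of the subset. Control replicate 3 was the lowest control library for 8 of the 9 tested heat-inducible genes and control replicate 1 the highest for 7. In the siRBM3 group, replicate 3 was the lowest library for 7 of the 9 and replicate 5 the highest for 6. Averaged over the 9 genes, the log2 deviation from the mean of all 6 libraries was 0.12, −0.21 and 0.03 in the control and −0.14, 0.06 and 0.13 in the siRBM3 libraries. Libraries of the same group thus lay much farther apart than the group means of −0.02 and 0.02. The co-chaperones shared this order in part, with replicate 3 the lowest library of its group for 6 of 7 genes in the control and for 6 of 7 in the siRBM3 group. The mitochondrial chaperones did not, with none of the 5 lowest in control replicate 3 and 3 of them highest there. Replicate 3 was also the library of each group with the most mitochondrial counts, and the part of this in the order of the chaperone genes was not tested.

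**Figure D4:**
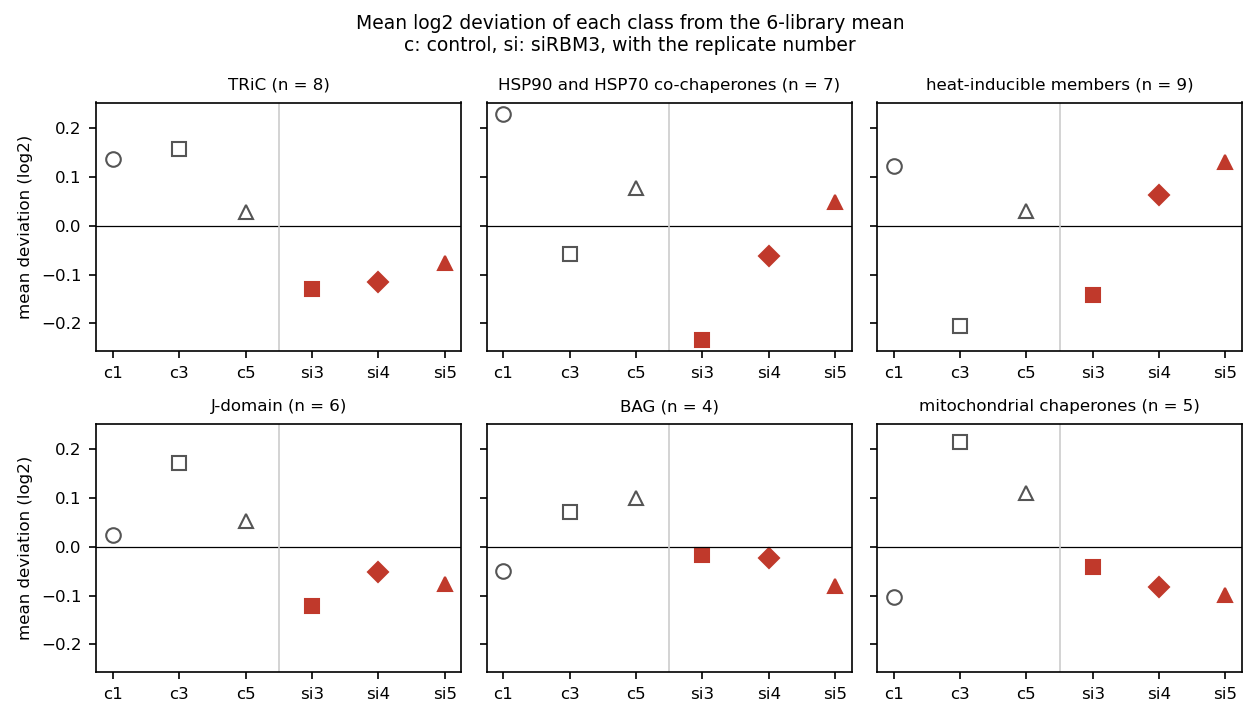
Mean log2 deviation of the tested genes of 6 sets from their mean over all 6 libraries (vertical axis), by library (c, control; si, siRBM3; with replicate number). TRiC separates the groups, with the lowest control at 0.03 and the highest siRBM3 library at −0.08. The J-domain class also separates them, at 0.02 and −0.05. The heat-inducible genes range as widely within each group, from −0.21 to 0.12 among the control libraries.

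The transcription factors had log2 fold changes below 0 that passed no threshold. HSF1 (ENSG00000185122) was at 152, 154.5 and 172 CPM in the control and 143, 136 and 145 CPM in the siRBM3 libraries. The groups did not overlap, and the log2 fold change was −0.17 ± 0.09 (FDR = 0.462, edgeR). HSF2, a related factor, had means of 14.7 ± 0.27 CPM in the control and 13.9 ± 1.52 CPM in the siRBM3 libraries (SD, n = 3 each), and its log2 fold change was −0.08 ± 0.13.

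All 3 HSP110 genes, the large relatives of HSP70 that act as its exchange factors, had log2 fold changes below 0. HSPA4L (ENSG00000164070; GRCh37 chromosome 4, 128702976 to 128761888) was at 16.4, 17.5 and 16.4 CPM in the control and 11.3, 12.0 and 13.8 CPM in the siRBM3 libraries. The control libraries lay close together and the groups did not overlap, with a log2 fold change of −0.44 ± 0.13 (FDR = 0.236 by edgeR, adjusted p = 0.0895 by DESeq2). HSPA4L and CCT7 were the genes with an unadjusted p under 0.05 in every alternative fit and with each library left out. HSPA4 was at 262.5, 276.5 and 236 CPM against 235, 219 and 220 CPM, just without overlap, with a log2 fold change of −0.20 ± 0.09. HSPH1, the inducible member, overlapped at −0.22 ± 0.15.

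The J-domain proteins, which hand clients to HSP70, had log2 fold changes below 0 in all 6 tested genes, a median of −0.16 and no unadjusted p under 0.05. Averaged over the class, every siRBM3 library (−0.12, −0.05 and −0.08) lay below every control library (0.02, 0.17 and 0.05). DNAJA1, a cytosolic farnesylated member and the most abundant of the class, was at 173, 132 and 151 CPM in the control and 114, 147 and 147 CPM in the siRBM3 libraries, with replicate 3 again the lowest on both sides. DNAJA2 was at 104, 157 and 128 CPM against 112, 111 and 96.4 CPM, the opposite order among the control libraries, with a log2 fold change of −0.28 ± 0.15. DNAJB4 failed the filter, with at most 0.282 CPM in any library.

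The BAG genes had a median log2 fold change of −0.02, and their groups overlapped in all 4. BAG3, which links HSP70 to selective autophagy and is itself heat-inducible, was at 127.5, 102 and 117 CPM in the control and 104, 120 and 122 CPM in the siRBM3 libraries, a log2 fold change of −0.01 ± 0.11 that turned above 0 in several alternatives. BAG2 was at 23.5, 35.1 and 26.1 CPM against 25.2, 22.7 and 18.8 CPM, with a log2 fold change of −0.34 ± 0.18, and 44.2% of its exon bases lie under genes of the other strand. HSPB1 (HSP27), the one small heat shock protein above the filter, was at 358, 269 and 315 CPM in the control and 295, 313 and 327 CPM in the siRBM3 libraries. Its log2 fold change was −0.01 ± 0.12. HSPB8 and CRYAB reached at most 0.0975 and 0.241 CPM, so that no difference could have been detected in them at this depth.

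The 7 co-chaperones all had log2 fold changes below 0, from −0.10 for CDC37, which brings kinases to HSP90, to −0.27 for STUB1, with a median of −0.19. The median was −0.08 without siRBM3 replicate 3, −0.11 without control replicate 1 and −0.29 without siRBM3 replicate 5. STUB1 (CHIP), the ubiquitin ligase that marks HSP70 and HSP90 clients for degradation, was at 90.5, 80.75 and 97.1 CPM in the control and 67.2, 78.0 and 76.9 CPM in the siRBM3 libraries. The groups did not overlap and the log2 fold change was −0.27 ± 0.11 (FDR = 0.336, edgeR), but 52.2% of its exon bases lie opposite JMJD8 and the sources used here do not state whether counting used the strand. PTGES3 (p23), which stabilises the closed HSP90 dimer, was the most abundant of the class per kilobase. It was at 364, 351 and 381 CPM against 300, 350.5 and 361.5 CPM, with a log2 fold change of −0.12 ± 0.10. STIP1 (HOP), the adaptor between HSP70 and HSP90, was at −0.19 ± 0.14, AHSA1, the activator of the HSP90 ATPase, at −0.19 ± 0.13 and FKBP4, an immunophilin of steroid receptor complexes, at −0.20 ± 0.20.

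Among the mitochondrial chaperones, DNAJA3, the J-domain partner of the matrix HSP70, was at 84.6, 119 and 94.5 CPM in the control and 88.0, 69.8 and 66.4 CPM in the siRBM3 libraries. Although siRBM3 replicate 3 lay inside the control range, the log2 fold change was −0.41 ± 0.16 (FDR = 0.322, edgeR). Without control replicate 3 it was −0.26. HSPA9, that matrix HSP70, was also highest in control replicate 3 and lowest in control replicate 1, and its log2 fold change of −0.32 ± 0.21 was −0.16 without control replicate 3 and −0.51 without siRBM3 replicate 3. TRAP1, the mitochondrial HSP90, was at 154, 157 and 144 CPM against 131, 129 and 134 CPM. Its groups did not overlap, with a log2 fold change of −0.21 ± 0.08 (FDR = 0.340, edgeR), and 43.9% of its exon bases lie under genes of the other strand.

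HSPD1 (HSP60), the barrel of the mitochondrial chaperonin, was at 352, 334 and 314 CPM in the control and 300, 303 and 299 CPM in the siRBM3 libraries, a log2 fold change of −0.15 ± 0.09 without overlap. Its lid HSPE1 (HSP10), whose gene starts beside HSPD1 on the opposite strand, was counted at only 0.517 to 1.42 CPM in any library. The annotation names 26 HSPE1 pseudogenes and 18 of HSPD1, and 34.5% of the HSPE1 exon bases are shared with the readthrough gene HSPE1-MOB4, so that the level of HSPE1, and its log2 fold change of 0.49 ± 0.38, are uncertain.

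Per kilobase of the canonical transcript, the 46 genes differed widely in their control level. HSP90AB1 was highest at 506 CPM per kilobase, followed by HSPB1 at 404, HSPA8 at 259, CCT7 at 237 and HSP90AA1 at 207. The inducible pair was counted far lower, with HSPA1A at 6.70 and HSPA1B at 5.98 CPM per kilobase. Their level is uncertain, since 73.8% and 70.2% of their stretches of 75 bases occur again in the genome. Another gene of the same strand covers 36.6% of the HSPA1B exon bases. How reads with several matches were counted is not stated in the sources used here. HSF1 was at 74.8 and HSF2 at 5.67 CPM per kilobase. The TRiC subunits ranged from 90.5 (CCT6A) to 237 (CCT7) CPM per kilobase in the control and from 80.9 (CCT2) to 192 (CCT7) in the siRBM3 libraries. In the siRBM3 means HSPA8, at 301 CPM per kilobase, kept the place behind HSP90AB1 (489) and HSPB1 (401.5).

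**Figure D5:**
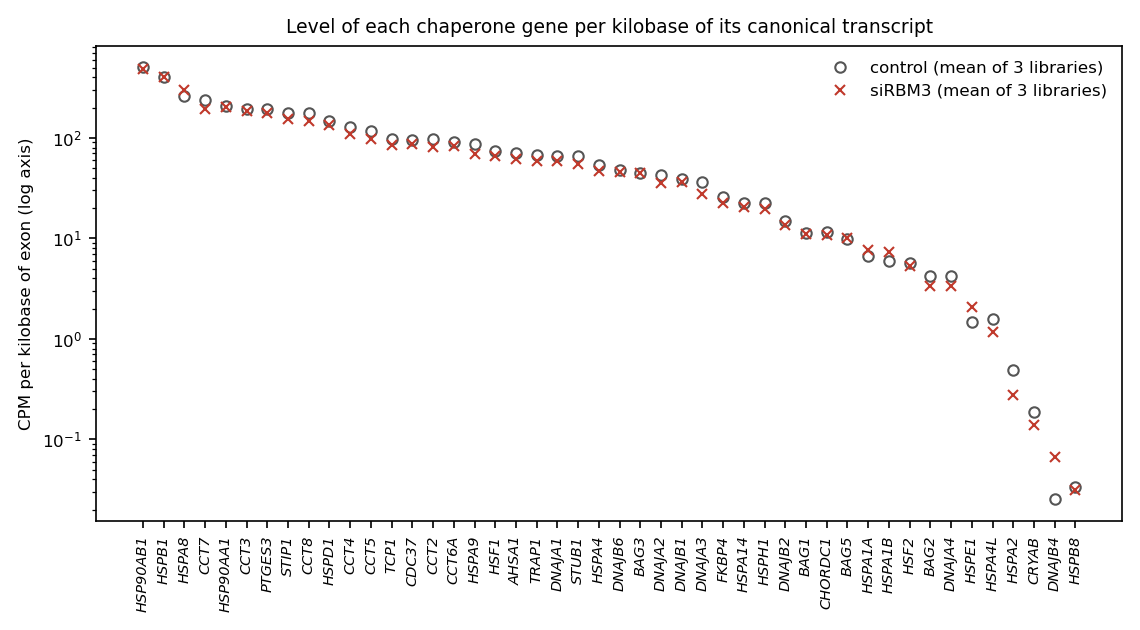
Mean level of each of the 46 genes in CPM per kilobase of exon (logarithmic vertical axis), ordered by the mean over all 6 libraries, for the control (circles) and siRBM3 (crosses) libraries. The levels run from 506 CPM per kilobase for HSP90AB1 to under 0.1 for DNAJB4 and HSPB8, and both symbols of a gene nearly coincide on this scale for most genes.

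Of the 7 genes with a 3-unit heat shock element in their promoters, 6 had log2 fold changes below 0 and 1 above, beside 38 and 5 of all 43 tested chaperone genes. HSPA8 was at a log2 fold change of 0.22, HSP90AA1 at −0.03, DNAJB6 at −0.04, HSP90AB1 at −0.05, CHORDC1 at −0.11, HSPD1 at −0.15 and DNAJA1 at −0.16. None of them had an unadjusted p under 0.05.

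Genes of the same machinery outside the 46 were read from 4 further lists. The first held 10 genes, for prefoldin subunits, which deliver clients to the chaperonin, and for other proteins related to TRiC. Of these genes, 8 had log2 fold changes above 0 and the median was 0.11, with no unadjusted p under 0.05. They include CCT6B, a paralog of a TRiC subunit, at 0.28 ± 0.31. The co-chaperones of HSP90 outside the 46 had 19 tested genes with a median of −0.10. The siRBM3 values all lay below the control values in 6 of them (31.6%, against 9.93% of all tested genes), and 0 had the reverse order. That share was close to the 32.6% of the tested chaperone genes. An unadjusted p under 0.05 was reached by 3 of the 19, all lower (15.8%, against 6.58% of all tested genes). Among them TOMM34, a cytosolic co-chaperone for proteins bound for mitochondria, had a log2 fold change of −0.61 ± 0.12 (FDR = 0.110 by edgeR, adjusted p = 0.00386 by DESeq2, past its call threshold), from 140 ± 5.70 to 91.4 ± 13.2 CPM (SD, 3 libraries each). The other J-domain and BAG genes had 29 tested, and their median was 0.02. At an unadjusted p under 0.05, 1 lay above 0 (3.45%) and 2 below (6.9%), beside 6.56% and 6.58% of all tested genes. DNAJC3, an inhibitor of the kinase PERK in the endoplasmic reticulum, was at 0.42 ± 0.12 and DNAJC9, a histone co-chaperone, at −0.50 ± 0.15 on the log2 scale (FDR = 0.202 and 0.236, edgeR). Of the other HSP70, small heat shock protein and regulator genes, 13 of 19 were tested, their median was −0.02 and none had an unadjusted p under 0.05.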

How the data were processed

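The authors deposited whole-number read counts per Ensembl gene, which were not normalised. Per the methods of the study, stranded mRNA libraries were sequenced as single 75-base reads, trimmed with BBDuk, aligned to GRCh37 with STAR, marked for duplicates with Picard and counted with featureCounts; the annotation release, the strand setting and the handling of marked duplicates are not stated in the sources used here. Groups and replicate numbers were taken from the sample titles. The study describes its in vitro data in general as from independent experiments and the RNA samples as triplicates, but the labels do not say whether the libraries of a group came from separate cultures, so p-values measure the spread between these libraries, which may be technical. Libraries of a group differed by a chi-square of at least 27.65 per degree of freedom, so none was counted as a repeat.

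Genes were filtered with filterByExpr (minimum count 10, minimum total 15), scaled by TMM and fitted on the whole table with the quasi-likelihood test of edgeR 4.0.16 (R 4.3.3), with siRNA as the only factor and Benjamini-Hochberg adjustment over all 15099 tested genes. Calls used the thresholds of the study, 1.5 for the fold change and 0.01 for the FDR. The SE is the log2 fold change divided by the square root of its F value. DESeq2 1.42.0, limma-voom 3.58.1, other scalings and filters, a replicate block and each library left out were run as alternatives. Only the edgeR fit as reported, DESeq2 and limma-voom were tested on simulated data. Levels are TMM-scaled CPM, per kilobase of the Ensembl canonical transcript of GENCODE 44 lifted to GRCh37 where genes are compared. Class deviations used log2(CPM + 0.5). Promoters are those of RefSeq, GRCh38.p14.

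The genes, classes and neighbouring lists were chosen with earlier results of these data known. Values for each library are given for RBM3, HSF1, the HSP70 and cytosolic HSP90 genes, each class's gene of smallest p and of highest level per kilobase, and every gene with an unadjusted p under 0.05, and of the neighbouring lists the gene of smallest p per direction among those with an unadjusted p under 0.05 is named. Other genes named, such as HSPE1, the ends of ranges and those with a promoter element, the sum of HSPA1A and HSPA1B and the median without HSPA8, were chosen after their values were seen.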

Additional observations from a re-analysis of the deposited data

How the results depend on the processing

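No chaperone gene was called under any alternative that was run. Of the 559 log2 fold changes of tested chaperone genes under alternatives, 33 of the 43 genes kept their sign throughout, and the 10 that did not (HSPA14, HSP90AA1, HSP90AB1, HSPB1, DNAJB6, BAG1, BAG3, BAG5, FKBP4 and CHORDC1) all had an unadjusted p of at least 0.05. Scaling by library size alone moved the median of all genes to −0.06, that of the chaperones to −0.20 and that of TRiC to −0.29. When single libraries were left out, the genes with an unadjusted p under 0.05 numbered 3 to 10 lower and 0 to 1 higher, with fewest lower without siRBM3 replicate 4 (3). The share of all tested genes at that p in these fits is not given here, so these counts have no background. In the same fits 0 to 3 chaperone genes lay higher and 14 to 20 lower without overlap (13.3% to 16.8% and 13.3% to 18.4% of all tested genes). These fits hold fewer samples. Without a filter 1 chaperone gene, HSPA8, had an unadjusted p under 0.05 in the higher direction. Calls over all genes numbered 127 higher and 152 lower without a filter, 84 and 75 by DESeq2, 51 and 32 at an FDR under 0.1 with no fold threshold, and 0 to 1 lower with a library left out. The labels share only replicate numbers 3 and 5 between groups, and the deviations of same-numbered libraries correlated over genes at 0.528 for number 3 and 0.088 for number 5. Differently numbered libraries correlated at −0.364 to 0.201, a range that holds the value for number 5 and not that for number 3. The labels give no shared batch or day and 2 pairs were too few to settle a pairing, so the libraries were treated as unpaired; with the replicate block 145 genes were called higher and 191 lower, none of them a chaperone, and the chaperone median was −0.14, that of the heat-inducible genes 0.09 and the FDR of DNAJA3 0.0169.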
